A study of Homo sapiens with 8 samples.

Results

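The genes described here encode the heat shock proteins of the HSP90, HSP70, HSP110, small heat shock and mitochondrial chaperonin families together with their J protein partners. They were chosen by gene symbol alone, as HSP90AA1, HSP90AB1, HSPH1, HSPD1, HSPE1, every numbered HSPA or HSPB gene, and every numbered DNAJA, DNAJB or DNAJC gene, with HSPA5 and DNAJB9 left out. The rule took 66 of 29534 genes of the expression table, 26 with an HSP symbol and 40 with a DNAJ symbol. BEAS-2B cells, a virus-transformed line of human bronchial epithelium, had been transfected for 12 h with pcDNA3.1-JunD or its empty vector, using a lipid reagent, and then held for 24 h in cigarette smoke extract (CSE). Each kind of cell gave 3 RNA libraries. Every RNA library therefore came from transfected, CSE-exposed cells, at a CSE concentration not given in the sources used here. JunD binding was mapped by chromatin immunoprecipitation (ChIP) with 1 JunD library and 1 input library, from cells in 8% CSE for 24 h, for which the labels give no transfection. Whether numbered libraries stem from separate cultures is not said in the labels. The p-values therefore cover the spread between libraries alone, which may be technical.

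Proteins of the HSP70 family bind exposed hydrophobic stretches of unfolded proteins and close on them when ATP is hydrolysed. J proteins deliver clients to HSP70 and stimulate its ATPase, and the HSP110 proteins and BAG proteins exchange its nucleotide, so that it opens and lets the client go. HSP90 acts later, on clients handed over from HSP70, and small heat shock proteins hold unfolding proteins in solution. Smoke extract contains oxidants and aldehydes that damage proteins, and the transcription factor HSF1 raises many of these genes when unfolded protein accumulates.

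The label of the set as cytosolic did not hold for all members. Sorted by the compartment where each protein is generally known to work, a grouping made after values had been seen, 33 of 66 belong to the cytosol or nucleus, 9 to mitochondria, 10 to the endoplasmic reticulum (ER) and 14 elsewhere or to no settled place. The set is therefore called here by its families.

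JUND itself, the transfected gene, stood at 70.3, 63.5 and 103 RPKM (reads per exon length and per assigned reads of the library) with JunD, and at 13.2, 10.5 and 10.6 RPKM with the empty vector, with no overlap. Libraries held 15967955 to 29617655 assigned reads, and the members took 1.71 to 2.03% of them with JunD and 2.06 to 2.27% with the empty vector. JunD replicate 3 stood apart from its group for several members. Among epithelial markers, KRT8 and KRT18 were detected and both fell (114 against 179 RPKM for KRT8), while KRT19, EPCAM, CDH1, KRT5 and KRT14 had a mean of at most 0.176 RPKM. The 7 epithelial markers summed to 178 to 195 RPKM with JunD and 262 to 281 RPKM with the empty vector. The leukocyte list summed to 158 to 187 RPKM with JunD and 36.9 to 41.4 RPKM with the empty vector, nearly all of it CD68, with the defining leukocyte gene PTPRC at 0 in the JunD libraries. The fibroblast list summed to 2.80 to 3.41 RPKM with JunD and 6.26 to 7.62 RPKM with the empty vector, and the endothelial list to at most 0.072 RPKM in any library. The part of these markers in the results below was not tested. In bulk RNA, fewer cells of a type and less RNA per cell cannot be told apart.

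Heat shock elements, the binding sites of heat shock factors, are shown first. Promoter windows, from 250 bases before to 50 bases after the RefSeq start (GRCh38.p14), were found for 59 of 66 members. The element was searched on both strands as 3 alternating units of GAA and TTC with 2 bases between units. It stood in 4 of 59 member windows (6.78%), in HSPA6, HSPA8, DNAJB6 and DNAJA1, and in 0.487% of the 27305 windows of the table. Only exact matches inside the window counted, so a member without a match is not shown to lack heat shock elements. The 250 bases before the start are printed for HSPA8, which fell with JunD, and for HSPA6, whose level was low, with matches in capitals. For DNAJB6 and DNAJA1, which were not called, the element is printed with its flanks.
HSPA8, chr11:123062137-123062386, minus strand: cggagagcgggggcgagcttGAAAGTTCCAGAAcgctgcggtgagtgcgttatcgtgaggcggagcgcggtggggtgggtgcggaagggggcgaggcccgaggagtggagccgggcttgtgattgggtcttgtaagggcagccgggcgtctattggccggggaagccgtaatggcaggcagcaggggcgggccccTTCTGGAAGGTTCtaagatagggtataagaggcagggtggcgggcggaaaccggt
HSPA6, chr1:161524290-161524539, plus strand: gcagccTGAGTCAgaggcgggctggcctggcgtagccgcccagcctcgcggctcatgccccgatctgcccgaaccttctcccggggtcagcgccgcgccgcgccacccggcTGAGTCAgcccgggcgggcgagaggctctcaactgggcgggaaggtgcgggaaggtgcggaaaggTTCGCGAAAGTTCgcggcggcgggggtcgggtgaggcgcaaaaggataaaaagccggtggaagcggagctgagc
DNAJB6, chr7:157336865-157336893, plus strand: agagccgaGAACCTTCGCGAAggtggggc
DNAJA1, chr9:33025268-33025296, plus strand: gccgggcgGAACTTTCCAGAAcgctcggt

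In HSPA8 the capitals mark 2 heat shock elements. In HSPA6 they mark 2 AP-1 motifs (searched as TGANTCA, a loose form of the motif of JUN and FOS family dimers) followed by 1 heat shock element nearer the start. The AP-1 motif in this form was in 3 of 59 member windows (5.08%), those of HSPA6, DNAJC15 and HSPB3, against 7.76% of all windows. Both matches of HSPA6 read TGAGTCA, and those of DNAJC15 and HSPB3 read TGATTCA. TGACGTCA, the cyclic AMP response element, was in the window of 1 member, DNAJC27, against 1.98% of all. TGATGCAAT, the ATF4 element, and the ER stress element were in no member window, against 0.264% and 0.0806% of all windows. The 2-unit motif GAANNTTC or TTCNNGAA, which lies inside every 3-unit element and was added after the other counts had been seen, was in 14 of 59 windows (23.7%) against 13.7% of all. Among these 14 were HSPA1A, HSPA1B and HSPB1, which had no exact 3-unit match. A match describes letters in a window and does not show a bound site.

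Of the 66 members, 51 had a mean of at least 1 RPKM over the 6 libraries and were tested, with limma on log2(RPKM + 0.5) and Benjamini-Hochberg adjustment over all 13379 genes tested. Log2 fold changes below are on that scale, JunD minus empty vector, and adjusted p-values are from this fit. With JunD, 15 members were higher, 5 were lower and 31 were not called, against calls in either direction for 46.2% of all genes tested. Higher calls made up 29.4% of tested members against 31.5% of all genes tested, and lower calls 9.80% against 14.7%, so the members' shares were near the background. Every JunD value exceeded every empty-vector value for 20 tested members (39.2%, background 38.8%) and was below them all for 9 (17.6%, background 18.5%). The median log2 fold change was 0.051 for the tested members and 0.099 for all genes tested.

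Among 34 tested J proteins, 11 were higher (32.4%, near the 31.5% of all genes) and none was lower, with a median log2 fold change of 0.15. Among 17 tested genes with an HSP symbol, 4 were higher (23.5%) and 5 lower (29.4%, background 14.7%), with a median of -0.15. Higher J protein calls numbered 7 without empty-vector replicate 1 and 16 without JunD replicate 3. Lower HSP calls numbered 2 and 1 without empty-vector replicates 1 and 2, and 3 without JunD replicate 1 or 2. The split also depended on scaling. After median of ratios scaling, which moved the median of all genes to -0.017 and the all-gene shares to 21.5% higher and 23.5% lower, the J proteins gave 5 higher and 3 lower calls and the HSP symbols 2 and 8. After quantile normalization (19.9% higher and 24.2% lower over all genes) the J proteins gave 4 and 2 and the HSP symbols 2 and 6. In TPM (37.8% and 11.3%) the J proteins gave 17 and 0 and the HSP symbols 4 and 4. The difference between the families was not tested.

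**Figure D1:**
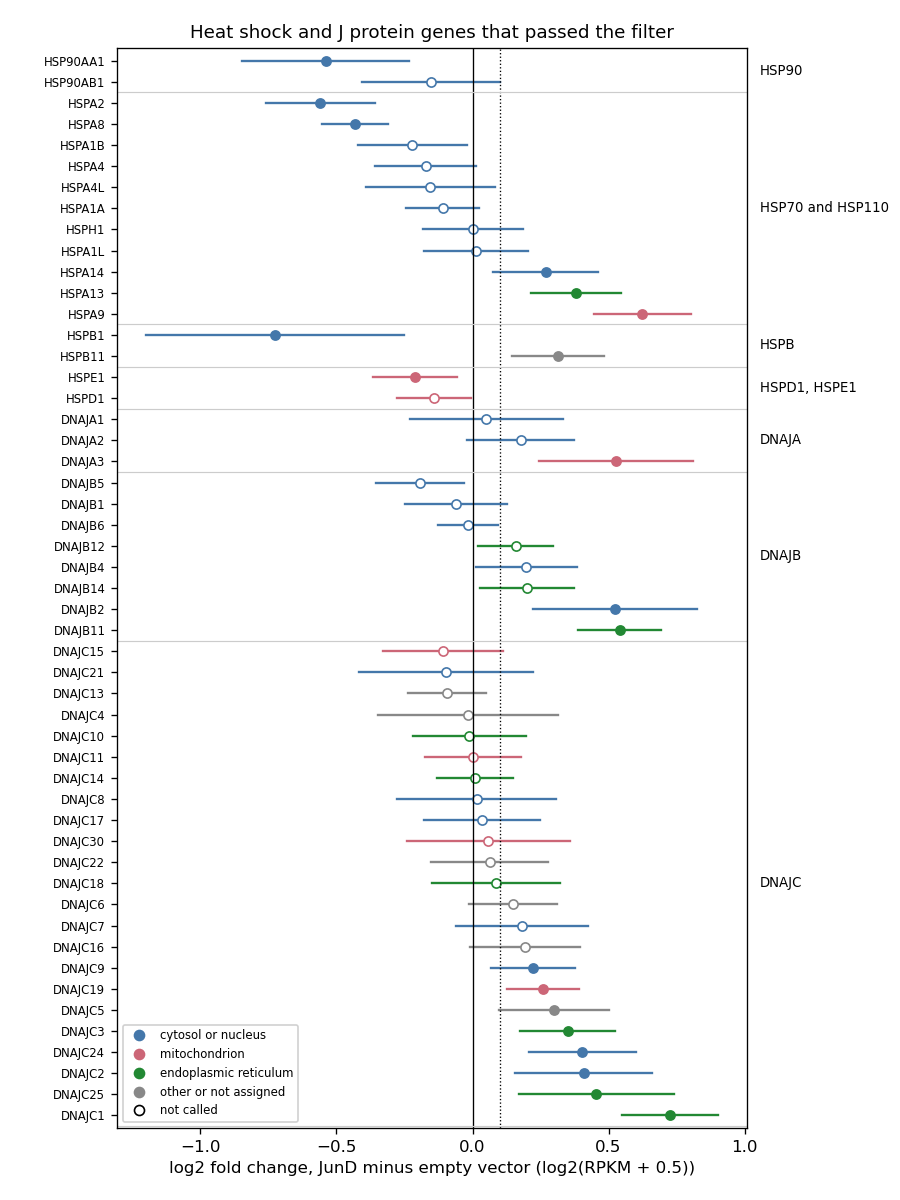
Log2 fold change, JunD minus empty vector, of the 51 tested members on the log2(RPKM + 0.5) scale, with bars for the 95% confidence interval, genes grouped by class, colours for the compartment and open circles for genes not called. The solid line marks 0 and the dotted line the median of all genes tested (0.099). DNAJC1 and HSPA9 lie farthest to the right and HSPB1, HSPA2 and HSP90AA1 farthest to the left.

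The HSP90 genes were the most abundant members. HSP90AA1, the stress-inducible cytosolic HSP90, stood at 1085, 1045 and 802 RPKM with JunD and at 1285, 1461 and 1489 RPKM with the empty vector. All JunD libraries were lower, and the lowest was replicate 3. The means were 977 ± 153 and 1412 ± 111 RPKM (SD, n = 3 each), with a log2 fold change of -0.54 (SE 0.13, limma adjusted p = 0.0143). The call was lost without empty-vector replicate 2 (adjusted p = 0.0553) and held without JunD replicate 3 (log2 fold change -0.40, adjusted p = 0.00767). HSP90AB1, its constitutive counterpart, stood at 1113, 1080 and 887 RPKM with JunD and at 1055, 1129 and 1227 RPKM with the empty vector, so the groups overlapped. Its log2 fold change of -0.15 had a 95% interval of -0.41 to 0.10 (adjusted p = 0.283).

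In the HSP70 and HSP110 class, 11 of 15 members were tested, 3 were higher and 2 lower, and the median log2 fold change was -0.11. HSPA8, the constitutive cytosolic HSP70 (HSC70), lies on chromosome 11, 123057489 to 123063230, minus strand (GRCh38). Its level was 303, 320 and 313 RPKM with JunD and 418, 427 and 417 RPKM with the empty vector. The groups were far apart for the spread within them, 312 ± 8.51 against 421 ± 5.79 RPKM (SD, n = 3 each), a level 1.35-fold lower with JunD. The log2 fold change was -0.43 (SE 0.05, limma adjusted p = 0.000879). This is the gene whose printed promoter carries 2 heat shock elements.

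HSPA9, the mitochondrial HSP70 (mortalin) that pulls imported proteins into the matrix, went the other way. Its level was 207, 199 and 179 RPKM with JunD and 119, 129 and 131 RPKM with the empty vector, all JunD libraries above. It rose 1.54-fold, from 126 ± 6.49 to 195 ± 14.7 RPKM (SD, n = 3 each), with a log2 fold change of 0.62 (SE 0.07, limma adjusted p = 0.000904). It lies on chromosome 5, 138554882 to 138575444, minus strand. HSPA13, an HSP70-like protein of the ER, stood at 11.4, 11.7 and 12.1 RPKM with JunD and at 9.51, 9.03 and 8.16 RPKM with the empty vector, again without overlap. Its log2 fold change was 0.38 (SE 0.07, adjusted p = 0.0050).

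HSPA2, an HSP70 best known from the testis, was low in both groups, at 0.754, 0.737 and 0.684 RPKM with JunD and 1.28, 1.28 and 1.36 RPKM with the empty vector. It passed the filter on low values only through the empty-vector group, so its call as lower (log2 fold change -0.56, adjusted p = 0.00231) describes these libraries and adds no count of support. HSPA14, which works at the ribosome with DNAJC2, had a log2 fold change of 0.27 (adjusted p = 0.0326). That call was lost without JunD replicate 1 and without any of the empty-vector replicates.

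The stress-inducible cytosolic HSP70 genes HSPA1A and HSPA1B were not called. HSPA1A averaged 203 ± 8.17 RPKM with JunD and 219 ± 6.93 RPKM with the empty vector, and HSPA1B 141 ± 11.2 and 164 ± 12.0 RPKM (SD, n = 3 each). Their log2 fold changes were -0.11 (95% interval -0.24 to 0.03, adjusted p = 0.155) and -0.22 (-0.42 to -0.02, adjusted p = 0.0697). HSPA1B was called lower without JunD replicate 3 and also without empty-vector replicate 3. The coding sequences of HSPA1A and HSPA1B are nearly identical, so the division of reads between them is uncertain. Among the HSP110 nucleotide exchange factors, HSPH1 had a log2 fold change of 0.0018 (95% interval -0.18 to 0.19), HSPA4 one of -0.17 (adjusted p = 0.112) and HSPA4L one of -0.16 (adjusted p = 0.242).

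**Figure D2:**
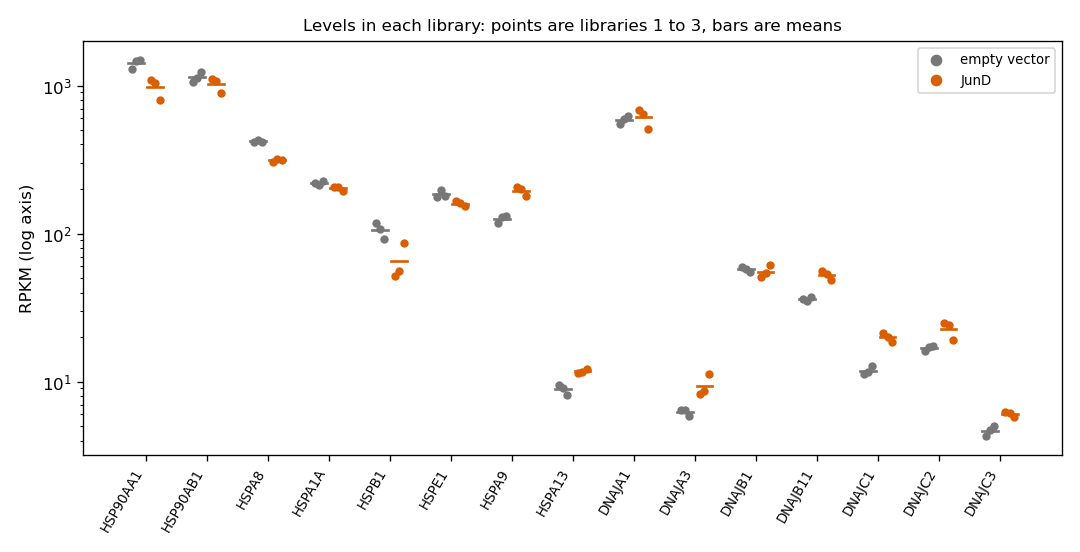
RPKM in each of the 6 libraries, on a log axis, for 15 members, with empty-vector libraries in grey and JunD libraries in orange and a bar at each group's mean. The JunD points of HSPA8 sit between 303 and 320 RPKM, below the empty-vector points, and those of HSPA9, DNAJB11 and DNAJC1 sit above theirs.

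Of 7 small heat shock protein genes, 2 passed the filter. HSPB1 (HSP27), which binds unfolding proteins and actin filaments, stood at 51.8, 56.3 and 86.8 RPKM with JunD and at 118, 107 and 91.9 RPKM with the empty vector. The groups did not overlap, but JunD replicate 3 lay close to empty-vector replicate 3. The log2 fold change was -0.73 (SE 0.20, limma adjusted p = 0.0239). Leaving out JunD replicate 1 or 2, or empty-vector replicate 1 or 2, took the adjusted p to between 0.0656 and 0.0757. Without JunD replicate 3 the log2 fold change was -0.95 (adjusted p = 0.000965). HSPB11 (IFT25), a protein of cilium transport with a small heat shock fold, stood at 22.8, 22.6 and 20.3 RPKM with JunD and at 18.1, 18.1 and 16.4 RPKM with the empty vector. Its log2 fold change was 0.31 (SE 0.07, adjusted p = 0.0116), and the call was lost after median of ratios scaling and after quantile normalization.

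The mitochondrial chaperonin is a barrel of HSPD1 (HSP60) capped by HSPE1 (HSP10), whose genes lie head to head. HSPD1 stood at 180, 185 and 171 RPKM with JunD and at 190, 203 and 198 RPKM with the empty vector. HSPE1 stood at 165, 160 and 154 RPKM with JunD and at 178, 198 and 179 RPKM with the empty vector. Both had all JunD libraries below all empty-vector libraries, but only HSPE1 was called, with a log2 fold change of -0.21 (SE 0.06, limma adjusted p = 0.0349), against -0.14 for HSPD1 (adjusted p = 0.0808). The HSPE1 call was lost when any of the 6 libraries was left out, and HSPE1 shares 23.9% of its exon length with other genes, and 14.2% of its exon length with HSPD1 alone, on the opposite strand. As the strand setting was not given in the sources used here, reads of such overlapping genes cannot be told apart.

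DNAJA proteins are the closest relatives of bacterial DnaJ. DNAJA3, the mitochondrial member and a partner of HSPA9, stood at 8.19, 8.59 and 11.2 RPKM with JunD and at 6.46, 6.47 and 5.90 RPKM with the empty vector. It rose by a log2 fold change of 0.53 (SE 0.12, limma adjusted p = 0.0116), with JunD replicate 3 the highest library, and by 0.39 without that library (adjusted p = 0.00364). DNAJA1, a cytosolic partner of HSPA8 and the J protein with the highest level, stood at 685, 644 and 512 RPKM with JunD and at 547, 592 and 627 RPKM with the empty vector. Here JunD replicate 3 was the lowest of all libraries and the groups overlapped, with a log2 fold change of 0.05 (95% interval -0.23 to 0.33, adjusted p = 0.752), or 0.18 without that library (adjusted p = 0.0894). DNAJA2, the other cytosolic member tested, stood at 45.1, 47.9 and 41.3 RPKM with JunD and at 36.4, 39.7 and 42.7 RPKM with the empty vector (log2 fold change 0.18, adjusted p = 0.121). DNAJA2 was called higher without JunD replicate 3.

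Of 8 tested DNAJB genes, 2 were higher and none lower. DNAJB11 (ERdj3), a soluble ER partner of HSPA5, stood at 55.6, 53.6 and 48.9 RPKM with JunD and at 35.9, 35.05 and 37.1 RPKM with the empty vector, well separated. It rose 1.46-fold, a log2 fold change of 0.54 (SE 0.06, limma adjusted p = 0.000851). Other genes overlap 23.2% of the exon length of DNAJB11, and the longest overlap, 8.65%, is with RP11-573D15.8 on the opposite strand. DNAJB2, which passes ubiquitin-marked clients to the proteasome, stood at 6.75, 7.69 and 9.69 RPKM with JunD and at 5.57, 5.56 and 5.05 RPKM with the empty vector, and had a log2 fold change of 0.52 (SE 0.13, adjusted p = 0.0149), or 0.39 without JunD replicate 3, its highest library (adjusted p = 0.00838).

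The DNAJB members closest to the threshold on its other side were DNAJB5 and DNAJB14. DNAJB5 stood at 4.13, 3.91 and 4.05 RPKM with JunD and at 4.61, 4.41 and 5.03 RPKM with the empty vector (log2 fold change -0.19, adjusted p = 0.0547). DNAJB14, an ER membrane J protein, stood at 2.80, 2.72 and 2.45 RPKM with JunD and at 2.20, 2.249 and 2.28 RPKM with the empty vector (log2 fold change 0.20, adjusted p = 0.0587). The groups did not overlap in either gene. DNAJB1 (HSP40), the classical stress-inducible J protein and the DNAJB gene with the highest level, stood at 50.8, 53.9 and 61.4 RPKM with JunD and at 59.6, 57.8 and 55.5 RPKM with the empty vector, with full overlap. Its log2 fold change was -0.06 with a 95% interval of -0.25 to 0.13 (adjusted p = 0.563). DNAJB6, which keeps polyglutamine proteins from aggregating, was between 23.0 and 23.7 RPKM in all 6 libraries (log2 fold change -0.02, 95% interval -0.13 to 0.09).

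DNAJC proteins share little beyond the J domain and serve many processes. Of 26 members, 23 were tested and 8 were higher, with no lower call and a median log2 fold change of 0.086, near the 0.099 of all genes tested. DNAJC1 (ERdj1), an ER membrane protein that docks ribosomes, had the largest rise of all tested members. It stood at 21.3, 20.1 and 18.5 RPKM with JunD and at 11.3, 11.7 and 12.7 RPKM with the empty vector, a 1.68-fold difference with wide separation. Its log2 fold change was 0.73 (SE 0.07, limma adjusted p = 0.000467). DNAJC3 (p58IPK), another ER partner of HSPA5 and an inhibitor of eIF2 alpha kinases, stood at 6.26, 6.18 and 5.77 RPKM with JunD and at 4.29, 4.69 and 5.01 RPKM with the empty vector (log2 fold change 0.35, adjusted p = 0.00852).

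DNAJC24, which takes part in making the diphthamide residue of elongation factor 2, stood at 2.37, 2.51 and 2.103 RPKM with JunD and at 1.56, 1.69 and 1.66 RPKM with the empty vector. Its log2 fold change was 0.40 (limma adjusted p = 0.00793). DNAJC19, a part of the mitochondrial import motor around HSPA9, stood at 8.94, 8.38 and 8.67 RPKM with JunD and at 6.94, 7.15 and 7.38 RPKM with the empty vector (log2 fold change 0.26, adjusted p = 0.00921). Neither gene's groups overlapped. The calls for DNAJC3 and DNAJC19 were lost after median of ratios scaling and after quantile normalization, and that for DNAJC24 after quantile normalization.

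The remaining higher DNAJC calls were less stable. DNAJC25, an ER membrane protein, had a log2 fold change of 0.46 (limma adjusted p = 0.0198), and its call was lost without empty-vector replicate 1 or 3 and without JunD replicate 1 or 2. DNAJC2, the ribosome-bound partner of HSPA14, had one of 0.41 (adjusted p = 0.0195), lost without replicate 1 or 2 of either group. DNAJC5, the cysteine string protein of secretory vesicles, had one of 0.30 (adjusted p = 0.0266), lost without any of the empty-vector replicates. DNAJC9, a histone chaperone, had one of 0.22 (adjusted p = 0.0304) and shares exon sequence with other genes over 29.1% of its length, 23.99% with FAM149B1 alone. Its call was lost when any library other than JunD replicate 3 was left out.

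The other 15 tested DNAJC genes had log2 fold changes between -0.11 (DNAJC15) and 0.19 (DNAJC16) and were not called. DNAJC8, a splicing-associated protein with the highest DNAJC level, stood at 187, 187 and 143 RPKM with JunD and at 155, 169 and 184 RPKM with the empty vector. JunD replicate 3 was again the lowest library, and the log2 fold change was 0.016 with a 95% interval of -0.28 to 0.31, or 0.14 without that library (adjusted p = 0.165). DNAJC14 stood at 14.5, 14.4 and 14.1 RPKM with JunD and at 14.03, 13.6 and 15.1 RPKM with the empty vector, and other genes overlap 58.1% of its exon length, 23.2% for RP11-762I7.5 on the same strand. DNAJC10 (ERdj5), a disulfide reductase of the ER, averaged 3.64 RPKM with JunD and 3.67 RPKM with the empty vector.

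**Figure D3:**
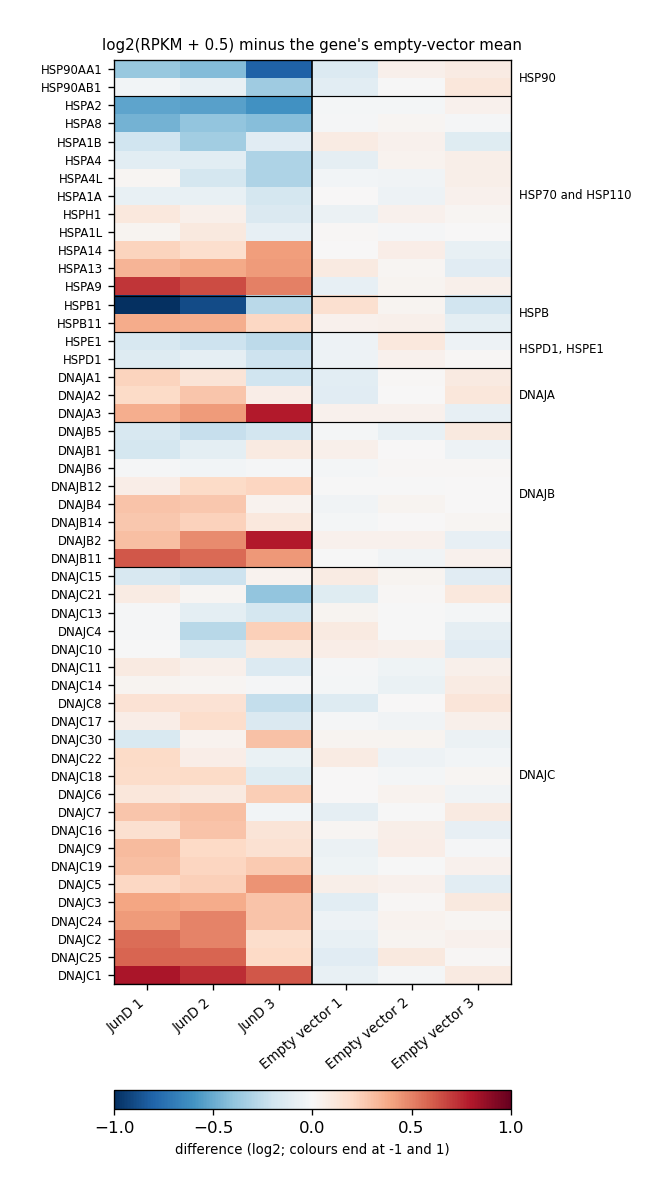
Difference of each tested member from its empty-vector mean, in log2(RPKM + 0.5), by library (columns) and gene grouped by class (rows), with colours ending at -1 and 1. DNAJC1, HSPA9 and DNAJB11 are high in all 3 JunD libraries and HSPA8 is low in them, and JunD replicate 3 departs from its group in HSP90AA1, HSPB1, DNAJA1 and DNAJC8.

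By compartment, all 10 ER members were tested, 5 were higher (DNAJC1, DNAJB11, DNAJC25, HSPA13 and DNAJC3) and none lower, with a median log2 fold change of 0.28, beside 31.5% higher and 14.7% lower over all genes. After median of ratios scaling and after quantile normalization 3 of the 10 were higher, and in TPM 7 were. Of 26 tested cytosolic or nuclear members, 5 were higher (19.2%) and 4 lower (15.4%), with a median of -0.0077. These became 2 and 8 after median of ratios scaling, 1 and 6 after quantile normalization and 7 and 4 in TPM. Leaving out 1 library gave 2 to 8 higher calls, the most without JunD replicate 3, and 1 to 5 lower calls, the fewest without empty-vector replicate 2. Of 8 tested mitochondrial members, 3 were higher (HSPA9, DNAJA3 and DNAJC19) and HSPE1 was lower, which became 2 higher and 3 lower after median of ratios scaling, 2 and 2 after quantile normalization and 3 and 0 in TPM. Since the compartments were assigned after the values were seen, these counts are descriptions.

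Summed over all 66 members, expression was 5075, 4955 and 4287 RPKM with JunD and 5106, 5469 and 5596 RPKM with the empty vector. The JunD libraries all lay below, by a narrow margin in replicate 1, and the means were 4772 ± 425 and 5390 ± 254 RPKM (SD, n = 3 each), a difference of -11.5%. The ratio of the means, JunD over empty vector, was 0.885, and 0.930 without JunD replicate 3. The sum over all genes of the table differed by -4.86%. These sums were not tested. The members' sum is carried by few genes. HSP90AA1, HSP90AB1, DNAJA1 and HSPA8 made up 66.0% of it in the empty-vector libraries, and the 10 highest members 85.7%. The sum of the HSP90 pair differed by -21.4% and that of the cytosolic and nuclear members by -14.8%. The ER members summed to 139 to 150.2 RPKM with JunD and to 109 to 113 RPKM with the empty vector, a difference of 31.8%. In these 3 sums the groups did not overlap. The compartment sums also rest largely on few genes. DNAJB11 averaged 52.7 RPKM with JunD and 36.0 RPKM with the empty vector, and DNAJC1 19.99 and 11.9 RPKM. Of the 10 ER members, 5 were higher, none was lower and 5 were not called. HSP90AA1, in the cytosolic sum, averaged 977 and 1412 RPKM. Since compartments were assigned after values were seen, these sums do not show a shift of a whole compartment.

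**Figure D4:**
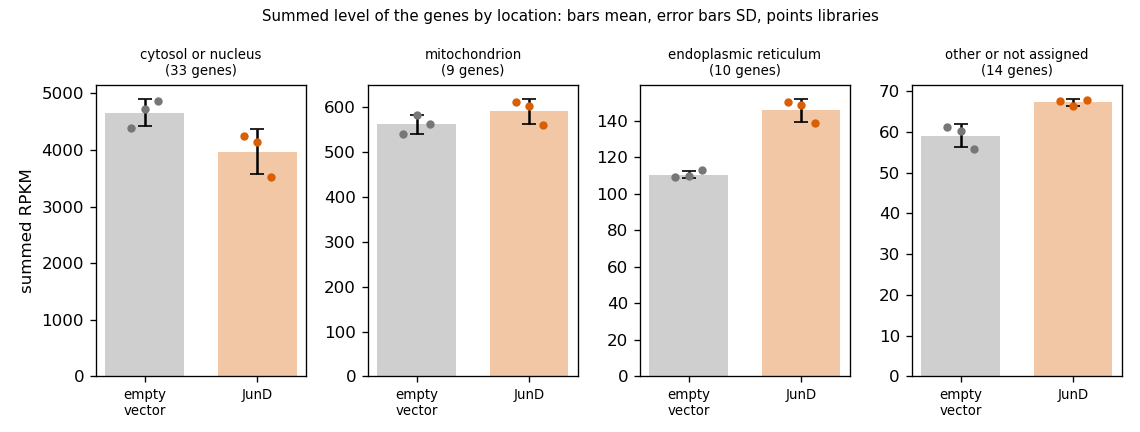
Summed RPKM of the members by compartment, 1 panel each with its own axis from 0, with points for libraries, bars for group means and error bars for the SD (n = 3). The JunD sums of the 33 cytosolic or nuclear genes lie below the empty-vector sums, those of the 10 ER genes lie above, and those of the 9 mitochondrial genes overlap. The sums weigh the most abundant genes most, and compartments were assigned after values were seen.

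The 15 members below the filter were HSPA6, HSPA7, HSPA12A, HSPA12B, HSPB3, HSPB6, HSPB7, HSPB8, HSPB9, DNAJA4, DNAJB7, DNAJB13, DNAJC12, DNAJC27 and DNAJC28. Their means ran from 0.0024 to 0.981 RPKM. HSPA6 (HSP70B'), an HSP70 that is nearly silent without stress, was singled out after its values had been seen. It stood at 0.867, 0.977 and 0.952 RPKM with JunD and at 0.333, 0.356 and 0.307 RPKM with the empty vector, 111 reads against 52 reads in all. The levels were 2.81-fold apart and did not overlap, and in a fit without the filter the log2 fold change was 0.78 (limma adjusted p = 0.0021). Its window carries both AP-1 motifs printed above, but the nearest JunD peak in the authors' list lay 102 kb from its start (q 0.348). A part of these motifs in the level of HSPA6 was not tested. In the same fit DNAJB13 was lower (log2 fold change -0.31, adjusted p = 0.0186), from 42 reads against 9 with JunD, and DNAJA4 was not called (0.38, adjusted p = 0.0744).

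The 4 members with an exact 3-unit heat shock element in their window thus did not share a direction. HSPA8 was lower, HSPA6 higher at a low level, and DNAJA1 and DNAJB6 were not called. Members with a looser or more distant element were not sorted by this search. HSF1, the main heat shock factor, averaged 9.72 ± 1.496 RPKM with JunD and 9.36 ± 0.518 RPKM with the empty vector (SD, n = 3 each), with a log2 fold change of 0.04 (limma adjusted p = 0.776). HSF2 was called higher at 0.19 (adjusted p = 0.0332) and HSBP1, a binding protein of HSF1, lower at -0.15 (adjusted p = 0.0497). Both calls were lost in most runs that left out a library, those without any empty-vector replicate or JunD replicate 2 for HSF2 and all 6 for HSBP1. HSF4 was below the filter.

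Partners of these chaperones were read from lists drawn up by function, with earlier results of these data known. Of 10 tested HSP70 co-chaperones, 2 were higher and 2 lower. BAG1, a nucleotide exchange factor of HSP70, averaged 16.4 ± 0.264 RPKM with JunD and 9.73 ± 0.270 RPKM with the empty vector (SD, n = 3 each), with a log2 fold change of 0.73 (limma adjusted p = 0.000105). BAG4 rose by 0.38 (adjusted p = 0.00501). STUB1, the ubiquitin ligase CHIP, fell by 0.50 on the log2 scale (adjusted p = 0.0218), a call lost without replicate 1 or 2 of either group. Of 15 tested HSP90 co-chaperones, 1 was higher and 1 lower. The lower was STIP1 (HOP), which links HSP70 to HSP90, at 134 ± 1.37 against 177 ± 4.995 RPKM (log2 fold change -0.41, adjusted p = 0.00092), and the higher was TTC4 (0.43, adjusted p = 0.00149).

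The cytosolic chaperonin CCT, which folds actin and tubulin, and its partner prefoldin gave 8 lower calls and 1 higher call among 14 tested subunits (57.1% lower, background 14.7%), with a median log2 fold change of -0.20. All lower calls but that of the prefoldin subunit VBP1 were CCT subunits. CCT8 went the other way without overlap, at 127 ± 2.31 against 117 ± 1.77 RPKM (SD). It was not called (log2 fold change 0.12, limma adjusted p = 0.076). TCP1 fell by 0.37 (limma adjusted p = 0.00135), CCT3 by 0.26 (adjusted p = 0.00502) and CCT2 by 0.29 (adjusted p = 0.00529) on the log2 scale, and the prefoldin subunit PFDN2 rose by 0.47 (adjusted p = 0.00786). Lower calls numbered 4 to 9 when 1 library was left out, with 4 without empty-vector replicate 2, and 5 without JunD replicate 1 or 2. They numbered 9 after median of ratios scaling (23.5% of all genes lower), 9 after quantile normalization (24.2%) and 6 in TPM (11.3%). Among 8 tested mitochondrial partners, 3 were higher and 1 lower. GRPEL2, a nucleotide exchange factor of HSPA9, averaged 3.73 RPKM with JunD and 2.12 RPKM with the empty vector (log2 fold change 0.69, adjusted p = 0.000539). CLPX, the unfoldase of the matrix protease ClpXP, rose by 0.34 (adjusted p = 0.00413), and CLPB was called lower at -0.22 (adjusted p = 0.0205). The CLPB call was lost without empty-vector replicate 1 or 2 and without JunD replicate 2.

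Among J-domain proteins without a DNAJ symbol, HSCB, which hands iron-sulfur clusters to HSPA9 in mitochondria, rose by 0.76 (limma adjusted p = 0.00458). SEC63, the J protein of the ER translocon, was at 0.28 (adjusted p = 0.0701). In the ER list of 12 tested genes 4 were higher (33.3%, near the 31.5% of all genes) and none lower. HSPA5 (BiP), the ER HSP70 left out by the symbol rule, averaged 169 ± 9.08 RPKM with JunD and 118 ± 3.40 RPKM with the empty vector (SD, n = 3 each), with a log2 fold change of 0.52 (adjusted p = 0.000761). DNAJB9 (ERdj4), also left out, averaged 6.51 ± 1.05 and 2.71 ± 0.271 RPKM (log2 fold change 1.12, adjusted p = 0.000586), beside 0.54 for DNAJB11 and 0.73 for DNAJC1. SIL1, the nucleotide exchange factor of HSPA5, rose by 0.63 (adjusted p = 0.000542), and HSP90B1, the ER HSP90, was at -0.095 (adjusted p = 0.446).

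JunD peaks were read from the authors' list of 61360 peaks, called on 1 JunD library against 1 input library, in which the fold enrichment, q-value and pileup of each peak are the authors' values. The median peak had a fold enrichment of 3.12 and a pileup of 5, and 2.60% of peaks had a q below 0.05. The start of 3 of 66 members had a peak within 1 kb (4.55%), against 7.23% of 29417 genes. Within 5 kb the counts were 12 members (18.2%) against 22.2% of genes, and no member had a peak with q below 0.05 within 1 kb, against 0.418% of genes.

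The member with a peak over its start was DNAJC14 (chr12:55830752-55831375, fold enrichment 3.29, q 0.214, pileup 6). The peak near DNAJB6 lay 0.772 kb upstream (chr7:157334359-157334609, fold enrichment 2.68, q 0.404, pileup 5). The peak near DNAJC24 lay 0.981 kb upstream (chr11:31368609-31368859, fold enrichment 2.28, q 0.579, pileup 3). Of these genes, DNAJC24 was called higher and the other two were not called. Next came DNAJC4 at 1.19 kb, DNAJC10 at 1.37 kb and HSPA12A at 1.42 kb. No peak lay within 5 kb of the outermost starts of HSPA8, HSP90AA1, HSPA9, HSPB1 or DNAJB11, and the nearest to DNAJC1 was 5.20 kb away. Between the outermost ends of the gene, HSP90AA1 had 3 peaks, DNAJB11 had 1 and DNAJC1 had 6, and HSPA8, HSPA9 and HSPB1 had 0. These genes differ widely in length: DNAJC1 runs from 21756537 to 22003769 and HSPB1 from 76302544 to 76304295. The counts were not scaled to length and no share over all genes was computed, so they do not compare the genes. The starts are the outermost ones of the table, and for HSPA8 and DNAJB6 the RefSeq start lies 1094 and 1623 bases downstream of it. The RefSeq start also lies inside the outermost ends for other members, such as HSPD1 and DNAJB11. Distances to starts within a gene were not measured, so a peak near such a start would be missed.

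Of the 20 called members, 7 kept their call in every alternative that tested them, namely DNAJC1, HSPA9, DNAJB11, HSPA13 and DNAJA3 as higher and HSPA8 and HSPA2 as lower. HSPA2 passed the filter only through the empty-vector group, so its place among the 7 is not counted as support. HSPA8 is the lower call that remains. No called member changed direction under any alternative that was run. Without JunD replicate 3, 20 members were called higher and 5 lower.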

How the data were processed

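The authors deposited expression as RPKM for 29534 genes. STAR 2.5.3a, Trimmomatic 0.36, Subread 1.5.1 with featureCounts, bedtools 2.25.0, MACS2 2.1.1 and build GRCh38 are named, per the submitters' processing notes, without order. The annotation and strand setting were not given in the sources used here. RPKM times exon length gave whole reads for 100% of values within 0.01 read. The authors' peak list, deposited for 1 JunD library against 1 input library, holds for each peak the pileup (a coverage signal), the fold enrichment (a ratio) and its p-value and q-value.

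Genes with a mean of at least 1 RPKM over 6 libraries entered a limma 3.58.1 fit (R 4.3.3) of log2(RPKM + 0.5) with an intensity trend. Calls are two-sided, with a Benjamini-Hochberg adjusted p under 0.05. The pseudocount understates changes of low genes. The script was tested on simulated data with few changed genes and no shift between the groups. That setting differs from these data, so it does not vouch for calls that depend on scaling. Values in every library are given for up to 4 tested members of each class with the smallest p, the highest member of each class, members with a peak within 1 kb, and HSPA6, and from each list up to 3 genes with the smallest p are named, with a few others chosen after their values were seen. Members and lists were chosen with earlier results of these data known. Members with exon overlap of at least 20% may share reads with another gene, or lose them, which was not measured. Alternatives were other pseudocounts, filters, scalings, a replicate block, leaving out each library, and limma voom on recovered reads, added after seeing the data. The labels do not say that a replicate number marks a shared culture or day, so the numbers were not used as pairs. Deviations from the group means correlated across genes at r from -0.38 to -0.083 for same-numbered libraries of the groups. For unlike-numbered libraries r was from -0.24 to 0.31. With 3 libraries a group, these values cannot show whether libraries shared a batch. Some genes of the lists are not reported here.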

Additional observations from a re-analysis of the deposited data

How the results depend on the processing

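The numbers of members called, 15 higher and 5 lower, moved with scaling: 7 higher and 11 lower after median of ratios scaling, 6 and 8 after quantile normalization, 21 and 4 in TPM. Over all genes the share of calls that were higher went from 68.2% to 47.8%, 45.0% and 76.9% under these scalings. Without a filter on low values 13 were higher and 3 lower, and with limma voom on recovered reads, added after seeing the data, 16 and 6. Leaving out 1 library gave 10 to 20 higher calls and 1 to 5 lower calls (1 without empty-vector replicate 2, 2 without empty-vector replicate 1, 3 without JunD replicate 1 or 2). With the replicate number as a block 8 were higher and 2 lower. Whether the numbers pair the libraries is not known, and r from -0.38 to -0.083 between same-numbered libraries does not settle it. A call lost under the block is not a smaller difference. Lower calls of CCT and prefoldin subunits went from 8 to 2 under the block. No called member changed direction, but the median log2 fold change of the tested members went from 0.051 to -0.079 after median of ratios scaling and -0.047 after quantile normalization. Members with a peak near the start went from 3 within 1 kb to 12 within 5 kb and to 0 with q below 0.05. Planned edgeR and DESeq2 fits were not run, since the deposited unit is RPKM. Depth limits members under 1 RPKM, such as HSPA6 with 52 to 111 reads a group. Causes were not tested.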
